A study of Homo sapiens with 6 samples.

Results

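The 10 genes described here make the chaperones of the endoplasmic reticulum (ER) and parts of its stress response: HSPA5, HSP90B1, PDIA4, PDIA6, CALR, DNAJB9, DNAJC3, XBP1, HERPUD1 and HYOU1. They were followed in Hs578T, an established human breast cancer cell line that carried an inducible gene for HOXA5, a homeobox transcription factor. RNA came from uninduced cells (0 h) and from cells 6 h and 9 h after induction, in each of 2 experiments, so each of the 3 groups held 2 arrays. The series' title names the transcriptional targets of HOXA5 as its question. All 6 arrays came from the inducible line, seeded 24 h before induction. The induction system, the inducing agent and whether the line is 1 clone are not given in the sources used here, and no array of uninduced cells at 6 h or 9 h was used, so time in culture and induction cannot be told apart.

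Members were all probe sets whose symbol in the platform's probe table is 1 of the 10 names. These were 18 of 22283 probe sets, covering all 10 genes: 4 for PDIA6, 3 for CALR, 2 each for HSP90B1, PDIA4 and DNAJB9, and 1 for each of the others. Another 2 probe sets listed HSP90B1 together with the microRNA gene MIR3652 and were left out. All 18 passed the filter on low values (at least 2 of the 6 arrays above a floor of 12.7 intensity units), among 18360 probe sets tested.

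The ER folds the proteins that a cell secretes or places in its membranes. When unfolded proteins build up there, 3 sensors in its membrane, IRE1 (gene ERN1), PERK (gene EIF2AK3) and ATF6, start the unfolded protein response. ATF6 and the spliced form of XBP1 switch on chaperone and degradation genes, while PERK slows translation and favours the factor ATF4. In carcinoma cells this machinery also serves the secretion of matrix proteins such as collagens.

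Many chaperone genes share a promoter element through which ATF6 acts, the ER stress response element (ERSE). It is spelled CCAAT, then 9 free bases, then CCACG. The related ERSE-II is ATTGG, then 1 free base, then CCACG, and overlaps no ERSE match in these genes. RefSeq promoter sequences (GRCh38.p14, 250 bases before to 50 after each start) matched all 10 genes, with 13 windows in all, and were searched on both strands. Only exact matches were counted, so elements that differ in a fixed letter are neither counted nor marked. An ERSE was found in 5 of the genes and in 27 of all 35116 windows, which is 0.0769%. ERSE-II was found in another 2, HERPUD1 and HYOU1, and in 19 windows (0.0541%). PDIA4, DNAJB9 and DNAJC3 held neither set of letters in these windows. The ERSE matches are shown because the element is shared by 5 of the 10 genes. They are written in the direction of the element, with its fixed letters in capitals.
HSPA5 (chr9:125241391-125241409, 66 to 48 bases before the start, same strand as the gene): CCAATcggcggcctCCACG
HSP90B1 (chr12:103930216-103930234, 194 to 176 bases before the start, same strand as the gene): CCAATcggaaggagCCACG
HSP90B1 (chr12:103930321-103930339, 89 to 71 bases before the start, opposite strand): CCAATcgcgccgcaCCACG
PDIA6 (chr2:10812853-10812871, 86 to 68 bases before the start, same strand as the gene): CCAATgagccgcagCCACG
CALR (chr19:12938384-12938402, 225 to 207 bases before the start, opposite strand): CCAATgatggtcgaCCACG
XBP1 (chr22:28800603-28800621, 52 to 34 bases before the start, same strand as the gene): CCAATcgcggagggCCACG

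The 250 bases before the start are given for 4 members with different courses over time: HSPA5 and XBP1, with an ERSE each, and HERPUD1 and HYOU1, with ERSE-II. They run in the direction of the gene, and capitals mark the matched elements. In HYOU1 the capitals mark 2 ERSE-II matches on the opposite strand and a match to the XBP1-type element TGACGTGG. The latter overlaps the first of them and was found in 0.729% of all windows.
HSPA5 (chr9:125241344-125241593, minus strand): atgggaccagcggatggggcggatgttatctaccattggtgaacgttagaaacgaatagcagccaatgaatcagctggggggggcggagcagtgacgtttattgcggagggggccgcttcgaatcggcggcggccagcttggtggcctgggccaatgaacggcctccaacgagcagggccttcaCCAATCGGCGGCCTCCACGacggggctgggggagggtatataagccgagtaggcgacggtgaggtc
XBP1 (chr22:28800570-28800819, minus strand): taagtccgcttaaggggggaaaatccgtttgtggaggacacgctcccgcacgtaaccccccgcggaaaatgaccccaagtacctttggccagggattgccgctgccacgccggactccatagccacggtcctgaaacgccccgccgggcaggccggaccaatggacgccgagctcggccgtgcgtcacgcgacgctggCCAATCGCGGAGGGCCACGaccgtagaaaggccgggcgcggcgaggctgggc
HERPUD1 (chr16:56931892-56932141, plus strand): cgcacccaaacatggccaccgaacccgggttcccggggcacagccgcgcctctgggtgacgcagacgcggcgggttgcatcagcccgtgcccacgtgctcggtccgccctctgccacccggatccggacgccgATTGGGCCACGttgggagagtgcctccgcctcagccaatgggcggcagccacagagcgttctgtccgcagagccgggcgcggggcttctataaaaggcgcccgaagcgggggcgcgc
HYOU1 (chr11:119057206-119057455, minus strand): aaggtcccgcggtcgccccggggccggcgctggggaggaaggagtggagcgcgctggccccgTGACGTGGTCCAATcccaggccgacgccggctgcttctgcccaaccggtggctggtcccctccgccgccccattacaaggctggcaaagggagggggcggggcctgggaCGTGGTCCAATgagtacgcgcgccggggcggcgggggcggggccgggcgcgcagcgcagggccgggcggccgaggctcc

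The deposited values are 1 intensity per probe set and array. Their medians ranged from 18.7 to 95.7 units over the 6 arrays, so the values were quantile normalised and each change below is relative to the whole array. Without that scaling, the median change of all tested probe sets was -1.35 at 6 h and -0.57 at 9 h on the log2 scale. Of 8 markers of mesenchymal breast cancer lines, 7 lay above the median probe set on all 6 arrays, VIM and CD44 among them, and TWIST1 did so on 2. Of 8 luminal epithelial markers, EPCAM and KRT19 were below the floor on all arrays, while KRT18 and GATA3 were above the median on all 6. No probe set of the table is named HOXA5, so its level was not analysed here. The labels do not say that the experiments were separate cultures, so the p-values measure the spread between these arrays, and 2 per group limit the precision. Fewer expressing cells and less RNA per cell cannot be told apart in these bulk samples.

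No member probe set passed the threshold of 0.05 for the adjusted p of limma (Benjamini-Hochberg over all tested probe sets) at 6 h or 9 h against 0 h, or at 9 h against 6 h. The background was 0% of 18360 probe sets in each of these comparisons. At an unadjusted p under 0.05 in limma, 0 members were lower and 0 higher at 6 h, beside 419 (2.28%) and 456 (2.48%) of all tested probe sets. At 9 h against 0 h 1 was lower (HYOU1) and 0 higher, beside 605 (3.3%) and 755 (4.11%). At 9 h against 6 h 1 was lower (HYOU1 again) and 0 higher, beside 474 (2.58%) and 494 (2.69%).

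Adding the experiment to the model, which pairs the arrays, left the members' adjusted count at 0, beside a background of 0.359% (66 probe sets) at 9 h and 0% in the other 2 comparisons. The lowest adjusted p of a member in that limma model was 0.321 at 6 h, 0.108 at 9 h and 0.473 at 9 h against 6 h. At an unadjusted p under 0.05 it gave 5 of 18 lower at 6 h (HSPA5, HERPUD1 and 3 probe sets of PDIA6), beside 4.83% of all probe sets, and 0 higher, beside 4.87%. At 9 h 4 were lower (HSPA5, HYOU1, 211048_s_at of PDIA4 and 207668_x_at of PDIA6), beside 6.57%, and 1 higher (XBP1), beside 7.29%. At 9 h against 6 h 2 were lower (HYOU1 and 212953_x_at of CALR), beside 4.44%, and 1 higher (HERPUD1), beside 4.8%. The PDIA6 probe sets read the same gene and are not separate evidence. All intervals and ± values of changes between times given here come from the model without the experiment. There the 95% intervals of the members' log2 changes reached a median of 1.10 to either side, which is wider than a 2-fold change. With the experiment as a term the standard errors at 9 h against 0 h were smaller. They went from 0.35 to 0.18 for HSPA5, from 0.92 to 0.38 for 211048_s_at of PDIA4 and from 0.41 to 0.35 for 212953_x_at of CALR. What follows describes levels and directions.

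**Figure D1:**
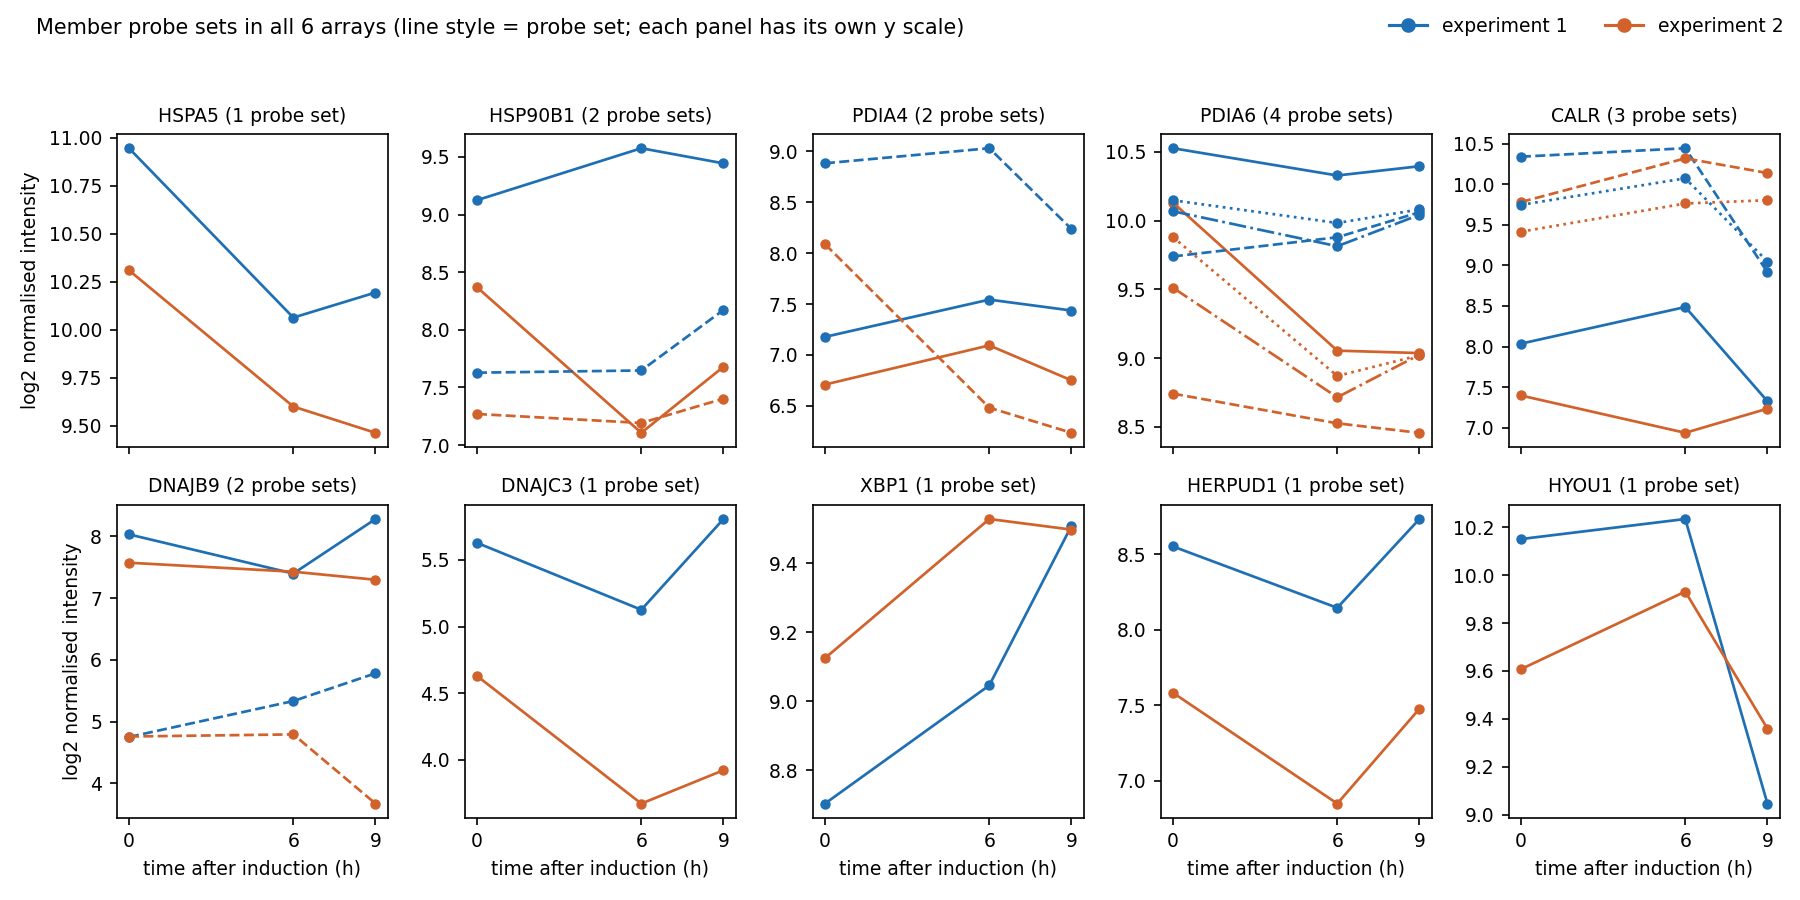
Log2 normalised intensity (y axis, its own scale in each panel) of the 18 member probe sets against time after induction (x axis, hours). Each line is 1 probe set in 1 experiment (blue experiment 1, orange experiment 2; line style marks the probe set); HSPA5 lay below its 0 h level at both times in both experiments, while XBP1 lay above it.

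HSPA5 encodes BiP, the main Hsp70 chaperone of the ER lumen, which also keeps the stress sensors inactive. Its probe set (211936_at) read 1973, 1071 and 1172 normalised intensity units at 0, 6 and 9 h in experiment 1 and 1270, 777 and 706 in experiment 2. Both arrays at each induced time were below both arrays at 0 h. The log2 change was -0.80 ± 0.35 (standard error, n = 2 arrays per group) at 6 h, with a 95% interval from -1.61 to 0.023, and -0.80 ± 0.35 at 9 h, from -1.62 to 0.020. Experiment 1 gave -0.88 at 6 h and -0.75 at 9 h, and experiment 2 gave -0.71 and -0.85. These correspond to levels 1.74-fold lower at each time, and limma's adjusted p was 0.969 and 0.678. Of all tested probe sets, 6.63% had a lower change at 6 h and 7.07% at 9 h. Between 6 h and 9 h its log2 change was -0.0031, with an interval from -0.82 to 0.82.

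HYOU1, a large Hsp70-like protein that helps release nucleotide from BiP, took another course. It read 1137, 1205 and 528 units at 0, 6 and 9 h in experiment 1 and 780, 977 and 657 in experiment 2 (200825_s_at). The 9 h arrays were below all 4 others. The log2 change was -0.68 ± 0.28 at 9 h against 0 h (95% interval -1.33 to -0.022, limma adjusted p = 0.669) and -0.88 ± 0.28 against 6 h (-1.54 to -0.23, adjusted p = 0.932). At 6 h against 0 h it was 0.20 ± 0.28. The 9 h difference from 0 h was -1.11 in experiment 1 and -0.25 in experiment 2. HSPA5 and HYOU1 proteins act together, but at 6 h their changes had opposite signs in both experiments. The sign of HYOU1 at 6 h is not firm. Its change was 0.084 in experiment 1, its 95% interval ran from -0.45 to 0.86, and without scaling it was -1.42.

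HSP90B1 encodes GRP94, the Hsp90 chaperone of the ER. Its probe set 216449_x_at read 558, 763 and 696 units at 0, 6 and 9 h in experiment 1 and 331, 138 and 205 in experiment 2. Experiment 1 thus lay above its 0 h value at both times and experiment 2 below it, with log2 changes of 0.45 and -1.26 at 6 h and 0.32 and -0.69 at 9 h. The other probe set, 216450_x_at, had a log2 change of -0.029 ± 0.38 at 6 h and 0.34 ± 0.38 at 9 h. The pair differed in sign at 9 h, where the first had -0.19 ± 0.86. The 2 probe sets listed with MIR3652 and left out were brighter. At 9 h, 200599_s_at changed by 0.20 in experiment 1 and -0.66 in experiment 2. For 200598_s_at these were -0.33 and -0.47, with both 9 h arrays below both 0 h arrays.

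CALR, calreticulin, is a calcium-binding chaperone that holds glycoproteins while they fold. Its brightest probe set, 212953_x_at, read 1295, 1391 and 483 units at 0, 6 and 9 h in experiment 1 and 879, 1276 and 1126 in experiment 2. The 9 h array of experiment 1 was the lowest of the 6, and that of experiment 2 lay between those at 0 h. Probe set 214315_x_at read 529 and 893 units at 9 h against 858 and 683 at 0 h, so experiment 1 was again the lowest while experiment 2 was above both. For 200935_at, with 161 and 151 units against 263 and 169, both 9 h arrays were below both 0 h arrays. The log2 changes at 9 h against 0 h were -0.53 ± 0.41, -0.15 ± 0.31 and -0.44 ± 0.52 in that order. In experiment 1 they were -1.42, -0.70 and -0.71, and in experiment 2 they were 0.36, 0.39 and -0.16. On the 9 h array of experiment 1, where HYOU1 and both brighter CALR probe sets, but not 200935_at, had their lowest value, ACTB read 1.82 times as high at its 3' end as at its 5' end, a sign of RNA quality, against 0.918 to 1.09 times on the others. For GAPDH these were 1.31 times and 0.863 to 1.12 times. Their part in these values was not tested.

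PDIA4 and PDIA6 are protein disulfide isomerases, which form and reshuffle disulfide bonds. The 2 probe sets of PDIA4 did not give the same picture. For 211048_s_at the levels were 471, 522 and 301 units at 0, 6 and 9 h in experiment 1 and 272, 89.4 and 75.4 in experiment 2. Both arrays of experiment 2 after induction were the lowest, with log2 changes of -1.61 at 6 h and -1.85 at 9 h, against 0.15 and -0.65 in experiment 1. For 208658_at they were 145, 186 and 173 units at 0, 6 and 9 h in experiment 1 and 105, 137 and 108 in experiment 2. Its log2 change was 0.37 ± 0.40 at 6 h and 0.15 ± 0.40 at 9 h, where that of 211048_s_at was -0.73 ± 0.92 and -1.25 ± 0.92.

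The 4 probe sets of PDIA6 had the same split between experiments. The brightest, 207668_x_at, read 1475, 1285 and 1347 units at 0, 6 and 9 h in experiment 1 and 1121, 531 and 525 in experiment 2. In experiment 2 all 4 were below their 0 h level at both times, by log2 changes from -1.08 to -0.22 at 6 h and from -1.09 to -0.28 at 9 h. In experiment 1 the changes lay between -0.25 and 0.14 at 6 h and between -0.13 and 0.32 at 9 h. The fitted change of 207668_x_at was -0.64 ± 0.54 at 6 h and -0.61 ± 0.54 at 9 h.

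DNAJB9 and DNAJC3 are co-chaperones with a J domain that work with BiP; DNAJB9 also restrains IRE1, and DNAJC3, known as p58IPK, inhibits PERK. DNAJB9 (202842_s_at) read 262, 169 and 311 units at 0, 6 and 9 h in experiment 1 and 190, 172 and 157 in experiment 2. Both 6 h arrays were below both 0 h arrays, and the 9 h arrays lay on either side of them. The log2 change was -0.39 ± 0.40 at 6 h and -0.013 ± 0.40 at 9 h. Its other probe set, 202843_at, was dim (10.2 to 55.0 units, below the floor at 9 h in experiment 2) and had 0.31 ± 0.69 at 6 h and -0.027 ± 0.69 at 9 h. DNAJC3 (208499_s_at) was dim as well, with 49.5, 34.9 and 56.0 units at 0, 6 and 9 h in experiment 1 and 24.8, 4.0 and 15.2 in experiment 2. Its 6 h value in experiment 2 was below the floor, so the log2 change at 6 h of -0.73 ± 0.78 depends on the floor.

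XBP1 is the transcription factor that IRE1 activates by splicing its mRNA; the array gives the total and does not separate the spliced form. It read 417, 529 and 728 units at 0, 6 and 9 h in experiment 1 and 558, 738 and 722 in experiment 2 (200670_at). Both 9 h arrays were above both 0 h arrays, and the 6 h array of experiment 1 lay between those at 0 h. The log2 change was 0.37 ± 0.28 at 6 h (95% interval -0.28 to 1.02) and 0.59 ± 0.28 at 9 h (-0.063 to 1.24, limma adjusted p = 0.703), a 1.5-fold higher level at 9 h. Experiment 1 gave 0.34 at 6 h and 0.80 at 9 h, and experiment 2 gave 0.40 and 0.37. Without scaling the 9 h change was -0.036 while that of all probe sets was -0.57, so the direction holds relative to the array only.

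HERPUD1 sits in the ER membrane and helps hand misfolded proteins to the proteasome. It read 375, 283 and 426 units at 0, 6 and 9 h in experiment 1 and 192, 115 and 178 in experiment 2 (217168_s_at). In both experiments the 6 h array was the lowest of the 3. The log2 change was -0.57 ± 0.60 at 6 h against 0 h, 0.61 ± 0.60 at 9 h against 6 h, and 0.038 ± 0.60 at 9 h against 0 h. Within the experiments the first was -0.41 and -0.73, and the second 0.59 and 0.63. The groups overlapped in each comparison. Experiment 1 read 1.96-fold above experiment 2 at 0 h, 2.46-fold at 6 h and 2.39-fold at 9 h.

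**Figure D2:**
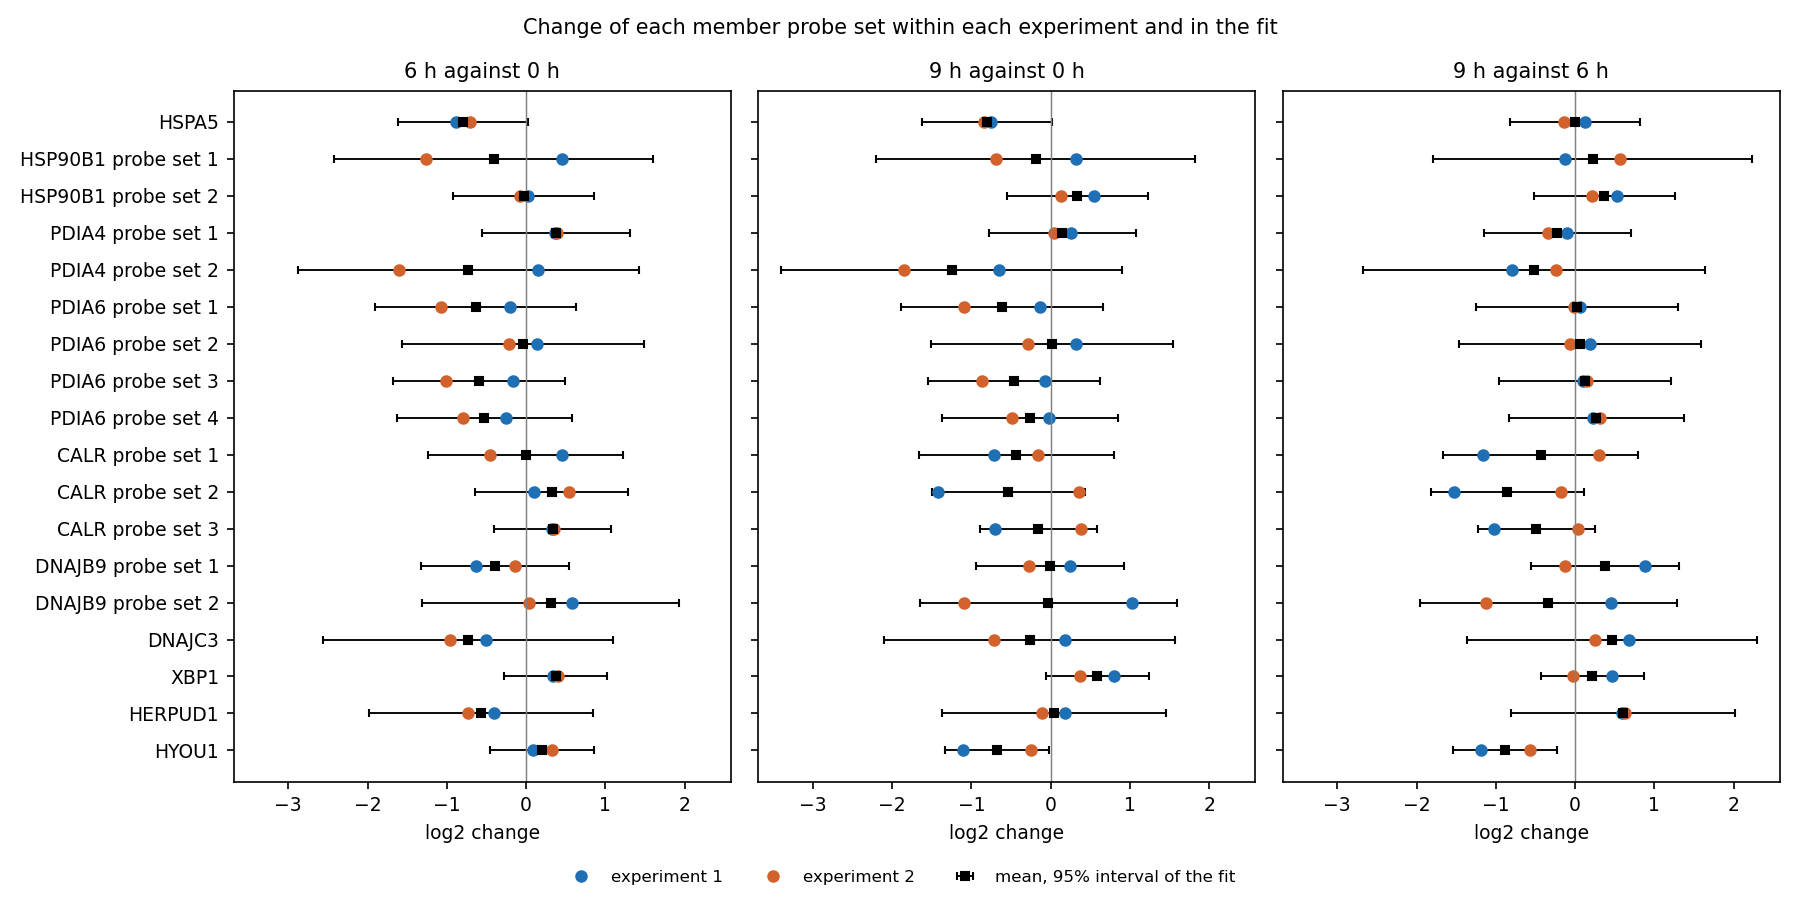
Log2 change (x axis) of each member probe set (y axis, numbered within a gene in the order of probe set number) at 6 h and 9 h against 0 h and at 9 h against 6 h. Black squares and bars are the change fitted without the experiment as a term, with its 95% interval. Circles are the changes within experiment 1 (blue) and 2 (orange). The intervals of this fit hold 0 for all but HYOU1 at 9 h, against both 0 h and 6 h.

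Counted together, 7 of the 18 member probe sets were lower and 6 higher than at 0 h in both experiments at 6 h, where 25.8% and 25.3% of all tested probe sets were. At 9 h 7 were lower and 3 higher in both, beside 28.9% and 26.9%. Opposite signs were found for 5 members at 6 h and 8 at 9 h, beside 41.1% and 36.2%. At 9 h against 6 h 4 were lower and 5 higher in both and 9 had opposite signs, beside 25.9%, 27.1% and 38.8%. Both arrays lay below both 0 h arrays for 2 members at 6 h (HSPA5 and the brighter DNAJB9 probe set; background 16.2%) and for 3 at 9 h (HSPA5, HYOU1 and 200935_at of CALR; 19.1%). Both lay above for 2 members at 6 h (214315_x_at of CALR and 202843_at of DNAJB9; 16.1%) and for 1 at 9 h (XBP1; 18.3%). At 9 h against 6 h, 2 members lay below (HYOU1 and 212953_x_at of CALR; 15.1%) and 0 above (14.9%). The counts of members whose groups do not overlap are near or under the background. Both comparisons with 0 h share the same 0 h arrays.

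With 1 probe set per gene, the one with the highest mean, the median log2 change of the 10 genes was -0.49 at 6 h and -0.40 at 9 h, where that of all 10444 genes tested was 0.012 and -0.020. With the mean of each gene's probe sets instead, the members' medians were -0.20 and -0.30, and over the 18 probe sets they were -0.21 and -0.22. In experiment 1 the members' medians were -0.057 and 0.024, and in experiment 2 -0.72 and -0.48. Leaving out the 6 h array of experiment 2 put the 6 h median at 0.10, and leaving out that of experiment 1 put it at -1.12. For 9 h the same omissions at that time gave 0.27 and -0.83. By these brightest probe sets, PDIA4, PDIA6, HSP90B1, DNAJC3 and HERPUD1 had lower changes in experiment 2 than in experiment 1 at both times. CALR and HYOU1 had higher changes in experiment 2 at both times. For XBP1 and DNAJB9 the order differed between the times, and the changes of HSPA5 were alike. Between 6 h and 9 h the median was 0.12.

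**Figure D3:**
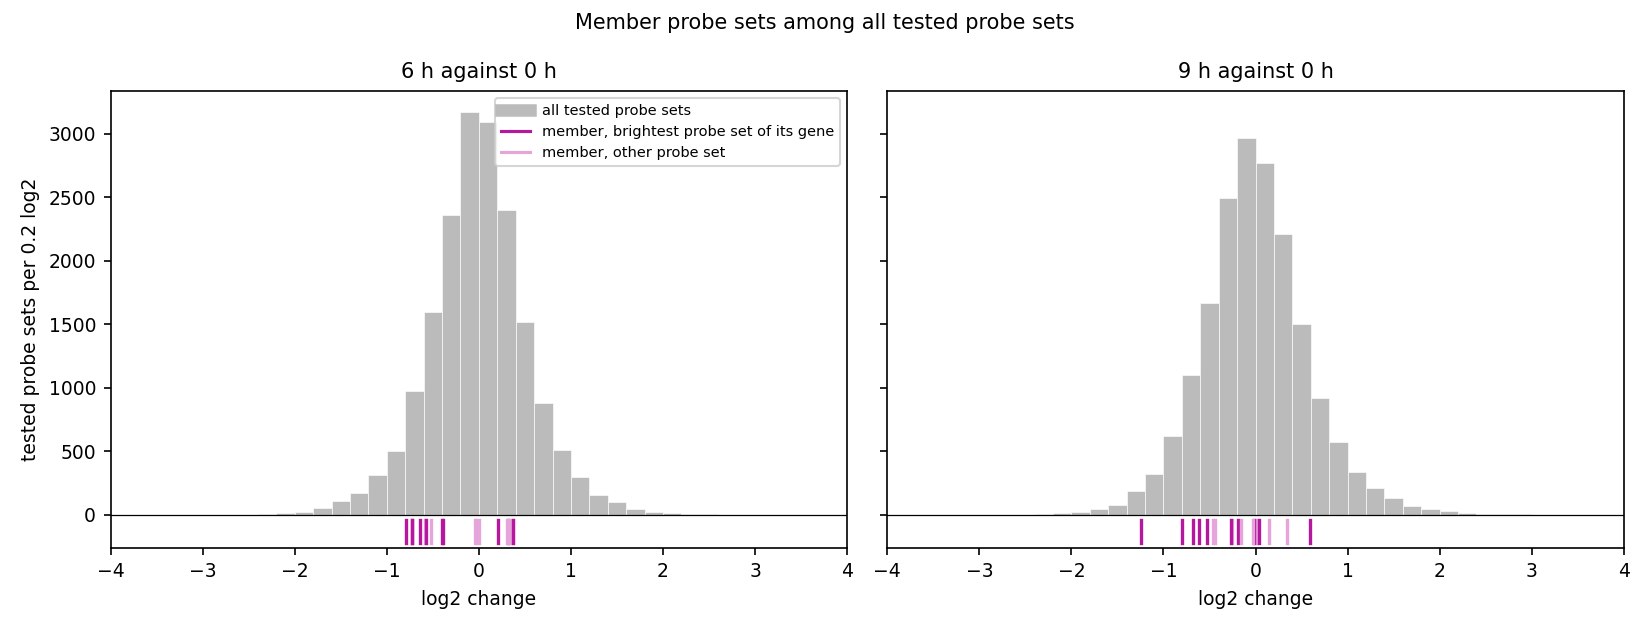
Number of all 18360 tested probe sets (grey bars, y axis, per 0.2 log2) by log2 change (x axis) at 6 h and 9 h against 0 h, with the 18 member probe sets as ticks below the axis. The members run from -0.80 to 0.37 at 6 h and from -1.25 to 0.59 at 9 h, where the lowest, 211048_s_at of PDIA4, had 1.63% of the tested probe sets below it.

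Levels also differed between the experiments. Of the 18 member probe sets, 12 were higher in experiment 1 than in experiment 2 at all 3 times, beside 17.9% of all tested probe sets, and 0 were lower at all 3, beside 20.7%. For 211048_s_at of PDIA4 experiment 1 read 1.73-fold above experiment 2 at 0 h, 5.84-fold at 6 h and 4.0-fold at 9 h. For 216449_x_at of HSP90B1 these were 1.69, 5.54 and 3.40-fold, and for HSPA5 they were 1.55, 1.38 and 1.66-fold. XBP1 was lower in experiment 1 at 0 h and 6 h, with 0.75, 0.72 and 1.01-fold. Several of the 18 read the same gene. In the limma model with time and experiment as terms, a test added after these levels were seen, 6 of the 18 were higher in experiment 1 at an adjusted p under 0.05 and 0 lower, beside 1.59% and 0.888% of all tested probe sets. They were 216449_x_at of HSP90B1 (log2 difference 1.66 ± 0.29), 211048_s_at of PDIA4 (1.78 ± 0.31), HERPUD1 (1.17 ± 0.20) and 3 probe sets of PDIA6, of which 208638_at had 1.32 ± 0.18. That of HSPA5 was 0.61 ± 0.15, with a limma adjusted p of 0.066. The members' count fell to 0 with the lot line in place of the experiment, without scaling, without the filter on low values and without the intensity trend. Of all probe sets tested in these settings, 0, 6, 0 and 1 were then higher in experiment 1, so the fall was not particular to the members. Fits without 1 of the arrays leave 1 array in a group, so no call is read from them.

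Other genes of the pathway came from 6 lists, with the brightest probe set for each gene. Over all genes tested, 29.5% were lower and 28.0% higher in both experiments at 9 h against 0 h. By limma 0 genes of the 6 lists passed over all probe sets at either time, and 3 did at 9 h when the model held the experiment, all in the PERK and ATF4 arm, beside 47 of all 10444 genes.

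Of the 9 tested genes of the PERK and ATF4 arm, 8 were higher and 0 lower in both experiments at 9 h, and their median change was 1.03 on the log2 scale (0.36 without scaling). At 6 h 7 were higher and 0 lower in both, with a median of 0.75 that was -0.87 without scaling, so the direction there holds relative to the array only. At 9 h ATF4 itself had 0.92, and DDIT3 (CHOP), a stress factor linked to cell death, 1.28. The 3 that passed with the experiment as a term were PPP1R15A (GADD34), which restores translation after stress (log2 change 1.65, adjusted p = 0.025), the ATF4 partner CEBPG (1.53, 0.027) and the glutathione-degrading enzyme CHAC1 (1.92, 0.038). With the lot line as a block instead, 0 of 18360 probe sets passed at 9 h against 0 h. These 3 calls thus depend on the pairing used. PPP1R15A read 127 and 734 units at 0 h and 496 and 1857 at 9 h. CHAC1 read 97.9 and 71.8 units at 0 h and 382 and 263 at 9 h, with no overlap, whereas the ranges of PPP1R15A overlapped.

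Of the 11 sensors and their proteases, 4 were lower and 2 higher in both experiments at 9 h, with a median of -0.23. ATF6 had a log2 change of 2.00 ± 0.88 (limma adjusted p = 0.678), with 79.5 and 25.1 units at 0 h and 161 and 200 at 9 h. Both 9 h arrays were above both 0 h arrays, as for 18.3% of all tested probe sets. Its 2 probe sets had the same sign at 9 h. At 6 h its change was -1.25 in experiment 1 and 2.93 in experiment 2. ERN1 had -0.57 ± 0.49 and WFS1, an ER membrane protein of calcium balance, -0.52 ± 0.39.

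Among the 24 other folding factors, 12 were lower and 4 higher in both experiments at 9 h (median -0.31). SERPINH1 (HSP47), the collagen chaperone, had the log2 change farthest from 0 of these, -1.93 ± 0.77, reading 495 and 402 units at 0 h and 216 and 63.6 at 9 h. SDF2L1, which works in the BiP cycle, had -1.32 ± 0.59, and the prolyl isomerase PPIB -1.24 ± 0.65. Among the listed genes outside the 10, SDF2L1 also held ERSE-II, and CANX, CRELD2 and ERO1B held an ERSE. CANX had a log2 change of 0.13 at 9 h and was higher in both experiments, and 2 of its 3 probe sets had the same sign. CRELD2 had -0.39 with opposite signs, and ERO1B was not tested. Of the 13 tested genes with an ERSE, the 5 members included, 3 were lower and 4 higher in both experiments at 9 h (median -0.19), and of the 14 with ERSE-II 6 were lower and 3 higher (median -0.25). Over all genes 29.5% were lower and 28.0% higher in both. Whether genes with either element differ from the rest was not tested.

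Of the 20 translocon and glycosylation genes, 10 were lower and 2 higher in both experiments (median -0.35). DAD1 and STT3A, subunits of the oligosaccharyl transferase, had log2 changes of -1.02 ± 0.37 and -1.04 ± 0.66, and SEC61A1, the channel itself, -0.87 ± 0.34. Of the 14 genes of ER-associated degradation 5 were lower and 1 higher in both (median -0.16), with UBE2G2 at -1.13 ± 0.62, UBE2J1 at -0.47 ± 0.31, both ubiquitin-conjugating enzymes, and the mannosidase MAN1B1 at -0.42 ± 0.36. The 18 genes of transport between ER and Golgi had 6 lower and 8 higher and a median of 0.092. There the coat protein gene SEC24A had 1.43 ± 0.30, while KDELR1 and KDELR3, receptors that return chaperones with a KDEL tail to the ER, had -0.80 ± 0.45 and -0.88 ± 0.32. For KDELR3 2 of 3 probe sets and for UBE2J1 3 of 4 had the same sign.

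**Figure D4:**
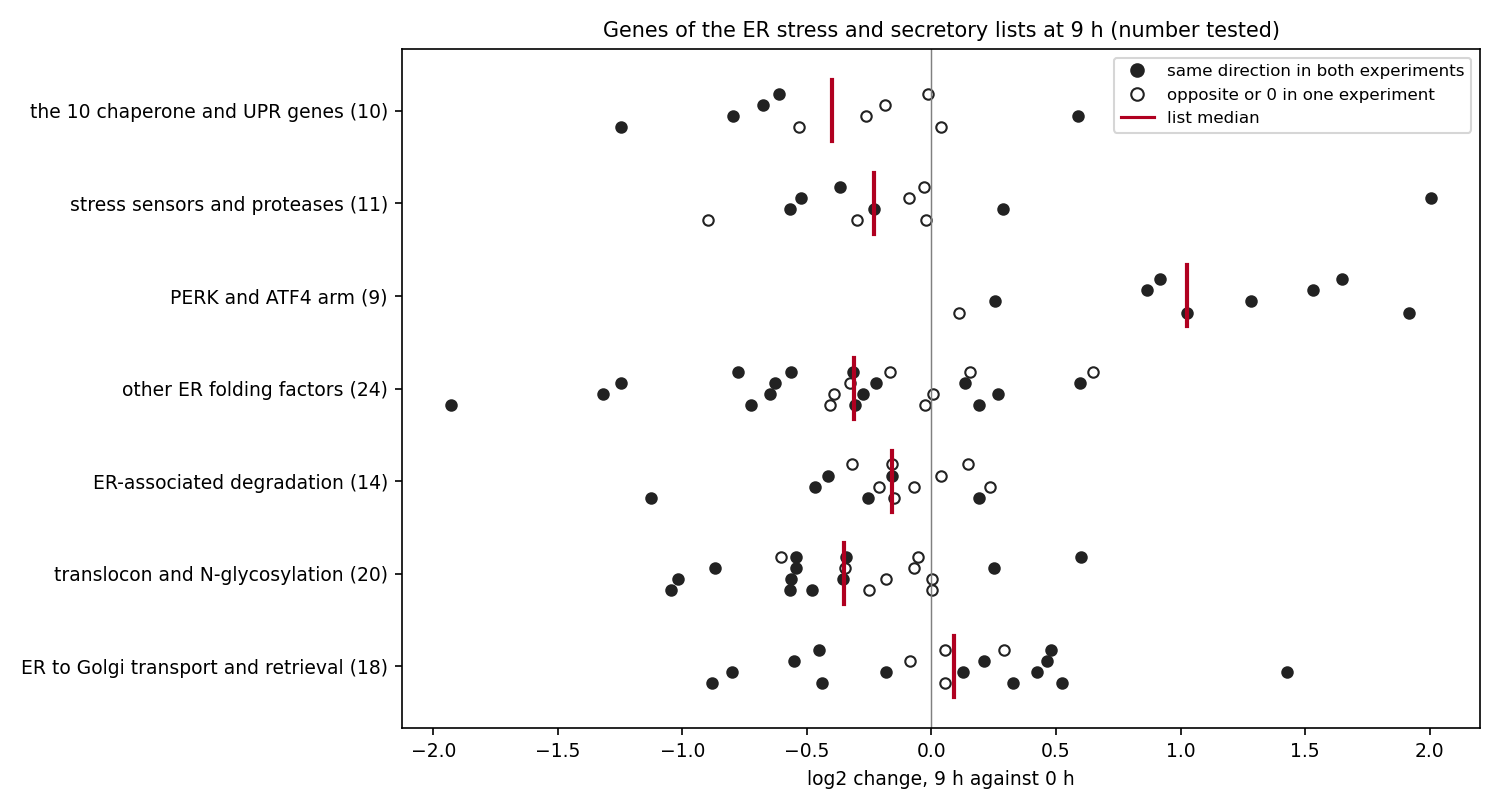
Log2 change at 9 h against 0 h (x axis) of each tested gene in 7 lists (y axis, number tested in brackets). Filled points have the same direction in both experiments, open points do not, and red bars are list medians; the PERK and ATF4 arm has a median of 1.03, the 10 chaperone and stress response genes -0.40.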

How the data were processed

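Total RNA of 6 samples was measured on Affymetrix chips, per the labels. The values the authors deposited are linear intensities, 1 per probe set and array, and their medians differ between arrays; the software that made them was not given in the sources used here. Symbols came from the platform's probe table, updated through Entrez numbers. Intensities were quantile normalised over 22283 probe sets, floored at the 25th percentile (12.7 units) and log2 transformed. The 68 controls and probe sets above the floor on fewer than 2 arrays were left out. Changes were fitted over all 6 arrays in limma 3.58.1 under R 4.3.3 (lmFit, then eBayes on the contrasts with a trend on intensity), two-sided, with 3 residual degrees of freedom; the method was tested on simulated data. A ± value of a change between times is a standard error of that fit, which left the experiment out.

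The labels give the experiment number as a batch of RNA, so it pairs the arrays; deviations from group means correlated at 0.247, 0.336 and 0.391 for the 3 pairs of times. The 6 h array of experiment 2 carries the lot line of experiment 1, and its title was followed. Members and lists were chosen with earlier results of these data known. The text names every member and, from each of 6 pathway lists, up to 3 genes with the largest change at 9 h and the same direction in both experiments, plus any called. It also names the listed genes that held an ERSE or ERSE-II. ATF4 and DDIT3 were named after their values were seen. The test of the experiment term was added after the data were seen. Alternatives were the experiment or the lot line as a block, other scalings, floors and filters, and leaving out each array.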

Additional observations from a re-analysis of the deposited data

How the results depend on the processing

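No member probe set passed the threshold between times in any setting run, the experiment as a replicate block included, where the count was 0 in all 3 comparisons and no call changed. Member values below did pass from one sign to the other while not called; the cause was not tested. Without scaling, at 6 h against 0 h, the member median moved to -1.93 and the sign turned for PDIA4 208658_at (-1.11), CALR 212953_x_at (-1.29), CALR 214315_x_at (-1.26), DNAJB9 202843_at (-0.98), XBP1 (-1.27) and HYOU1 (-1.42). Without scaling, at 9 h against 0 h, the member median moved to -0.99 and the sign turned for HSP90B1 216450_x_at (-0.18), PDIA4 208658_at (-0.35), PDIA6 208638_at (-0.55), XBP1 (-0.036) and HERPUD1 (-0.49). Without scaling, at 9 h against 6 h, the member median moved to 1.08 and the sign turned for HSPA5 (0.97), PDIA4 208658_at (0.76), PDIA4 211048_s_at (0.45), CALR 200935_at (0.55), CALR 212953_x_at (0.090), CALR 214315_x_at (0.46), DNAJB9 202843_at (0.40) and HYOU1 (0.093). With each array scaled to a common median, at 6 h against 0 h, the sign turned for HYOU1 (-0.082). With each array scaled to a common median, at 9 h against 0 h, the sign turned for DNAJB9 202842_s_at (0.055) and DNAJB9 202843_at (0.013). With each array scaled to a common median, at 9 h against 6 h, the member median moved to 0.35 and the sign turned for HSPA5 (0.22) and PDIA4 208658_at (0.0066). With a pseudocount of 16 in place of the floor, at 6 h against 0 h, the sign turned for CALR 200935_at (0.0077). With a pseudocount of 16 in place of the floor, at 9 h against 0 h, the sign turned for DNAJB9 202843_at (0.0067). With the lot line as a block, at 6 h against 0 h, the member median moved to -1.06 and the sign turned for DNAJB9 202843_at (-0.22). With the lot line as a block, at 9 h against 6 h, the member median moved to 0.40 and the sign turned for HSPA5 (0.34), PDIA4 208658_at (0.063), PDIA4 211048_s_at (0.18) and DNAJB9 202843_at (0.19). Leaving out each array in turn, at 6 h against 0 h, gave a member median from -1.12 to 0.10, and signs turned for HSP90B1 216449_x_at (-1.64 to 0.83), HSP90B1 216450_x_at (-0.26 to 0.20), PDIA4 211048_s_at (-2.0 to 0.54), PDIA6 208638_at (-0.72 to 0.64), PDIA6 216640_s_at (-1.08 to 0.024), CALR 200935_at (-0.78 to 0.77), HERPUD1 (-1.22 to 0.078) and HYOU1 (-0.068 to 0.48). Leaving out each array in turn, at 9 h against 0 h, gave a member median from -0.83 to 0.27, and signs turned for HSP90B1 216449_x_at (-1.07 to 0.70), HSP90B1 216450_x_at (-0.046 to 0.72), PDIA4 208658_at (-0.19 to 0.49), PDIA6 207668_x_at (-1.29 to 0.067), PDIA6 208638_at (-0.78 to 0.82), PDIA6 208639_x_at (-0.99 to 0.067), PDIA6 216640_s_at (-0.77 to 0.25), CALR 212953_x_at (-1.14 to 0.078), CALR 214315_x_at (-0.53 to 0.22), DNAJB9 202842_s_at (-0.51 to 0.48), DNAJB9 202843_at (-1.08 to 1.03), DNAJC3 (-1.21 to 0.68) and HERPUD1 (-0.59 to 0.67). Leaving out each array in turn, at 9 h against 6 h, gave a member median from -0.44 to 0.59, and signs turned for HSPA5 (-0.37 to 0.36), HSP90B1 216449_x_at (-1.01 to 1.46), HSP90B1 216450_x_at (-0.017 to 0.75), PDIA4 208658_at (-0.57 to 0.12), PDIA4 211048_s_at (-1.79 to 0.75), PDIA6 207668_x_at (-0.65 to 0.70), PDIA6 208638_at (-0.75 to 0.86), PDIA6 208639_x_at (-0.43 to 0.68), PDIA6 216640_s_at (-0.28 to 0.82), CALR 200935_at (-1.21 to 0.34), DNAJB9 202842_s_at (-0.12 to 0.87), DNAJB9 202843_at (-1.39 to 0.72), DNAJC3 (-0.48 to 1.41), XBP1 (-0.025 to 0.46) and HERPUD1 (-0.040 to 1.26). The other 446 values outside the leave-one-out settings kept direction and side of the threshold or moved by less than the spread between experiments. With no filter on low values 24, 12 and 18 probe sets passed at 6 h and 9 h against 0 h and at 9 h against 6 h, none of them members. The replicate block gave 66 at 9 h against 0 h, where the model without it gave 0 and the lot line as a block also gave 0. The floor at the 10th percentile, the fit without the intensity trend and the mean of a gene's probe sets changed no sign or call between times; the last put the member median at -0.20 at 6 h against 0 h, where the brightest probe sets gave -0.49. The count of members higher in experiment 1 was 6 in the model with both terms, beside 292 of all tested probe sets. It was 0 with the lot line in its place, without scaling, with no filter and with no intensity trend, beside 0, 6, 0 and 1 of all. It was 4 with median scaling, 7 with the floor at the 10th percentile and 8 with the pseudocount, beside 179, 432 and 549 of all. The members' count thus moved with the calls over all probe sets. All these settings were chosen after seeing the data. The leave-one-out settings leave 1 array in a group, so no call is read from them. The dim probe sets of DNAJB9 and DNAJC3 lie near the floor, which limits their changes.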
